A study of Mus musculus with 55 samples.

Results

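Clonal biliary epithelial cells (cBEC) and non-progenitor ducts (NPD) are a pair of populations that were sorted separately from mouse liver, and their transcript levels in normal liver were compared over all genes. The comparison used every library with these titles from normal liver, 4 of cBEC and 2 of NPD, which is 6 of the 55 libraries of the series. One transcript was kept for each gene symbol, the one with the highest mean over the 55 libraries, which left 24478 of the 36141 transcripts in the table.

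The series holds RNA sequencing of 10 populations sorted by flow cytometry, taken from mice whose liver is labelled normal and from mice after partial hepatectomy (PH, surgical removal of part of the liver). All mice were of the C57B/L6 strain. The labels name no age, transgene, time after surgery, sort marker or gate, and do not say which libraries came from separate animals, so p-values measure the spread between these libraries, which may be technical. The labels give no more on normal liver than that name. The same sorts after PH (2 libraries each) served as separate libraries, and the biliary epithelial cell sort of normal liver (BEC, 4 libraries) gave a reference level. PH cBEC library 1 carries the treatment tag normal although its title says PH, and it was kept as titled.

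Bile ducts are lined by biliary epithelial cells, also called cholangiocytes. They are polarised cells held together by tight junctions and desmosomes, they carry a primary cilium that faces the duct lumen, and they modify bile by moving ions, water and bile acids. A part of the duct cells can found colonies in culture, and surface proteins such as Prom1 (CD133) are used to enrich them. The surface of the liver is covered by mesothelium, a flat epithelium that shares several keratins with ducts and is known for mesothelin (Msln), uroplakin 3b (Upk3b) and the transcription factor Wt1.

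Values are FPKM, read numbers divided by transcript length and by the size of the library, and their sum was 650345 to 783102 per library over the 6 libraries. The table holds no read counts, and the sequencing depth of the libraries is unknown. The replicate correlation of log2(FPKM + 1) was 0.932 to 0.980 in cBEC and 0.971 in NPD. Library 1 of cBEC stood apart from libraries 2 to 4 in many of the genes below, so the list counts are also given without it, beside the list or in the paragraph on that library.

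The labels were first checked against marker genes. Epcam (NM_008532, chromosome 17, 88035319 to 88050467, plus strand), an adhesion protein of simple epithelia, was at 307, 357, 388 and 382 FPKM in cBEC libraries 1 to 4 and at 42.8 and 39.3 FPKM in NPD libraries 1 and 2. All 4 cBEC libraries lay above both NPD libraries. The difference was 3.09 on the log2(FPKM + 1) scale (SE 0.19, limma adjusted p 7.51e-05), with a mean 8.72 times as high in cBEC. Muc1 (NM_013605, chromosome 3, 89032978 to 89037303, plus strand), a mucin of the luminal cell surface, was at 596, 188, 263 and 265 FPKM in cBEC and at 22.3 and 16.5 FPKM in NPD. It was highest in cBEC library 1, and the sorts did not overlap, and cBEC exceeded NPD by 3.88 on that scale (SE 0.43, limma adjusted p 0.000686). Coordinates here are those of the deposited table, for which the submitters' processing notes name mm9.

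The mesothelial markers ran the other way. Msln (NM_018857, chromosome 17, 25885558 to 25891272, minus strand) was at 142, 26.4, 38.1 and 36.8 FPKM in cBEC and at 2074 and 1548 FPKM in NPD. Upk3b (NM_175309, chromosome 5, 136514366 to 136520863, plus strand) was at 165, 29.1, 41.9 and 36.9 FPKM in cBEC and at 1902 and 2151 FPKM in NPD. Myl7 (NM_022879, chromosome 11, 5796640 to 5798785, minus strand), a myosin light chain best known from the heart atrium, was at 32.3, 5.48, 14.7 and 7.75 FPKM in cBEC and at 981 and 690.0 FPKM in NPD. For these 3 genes every NPD library was above every cBEC library, and library 1 was the highest of cBEC. The log2 differences, cBEC minus NPD, were -5.19 for Msln (SE 0.66), -5.24 for Upk3b (SE 0.69) and -5.97 for Myl7 (SE 0.66), with limma adjusted p of 0.0022, 0.00268 and 0.0015.

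**Figure D1:**
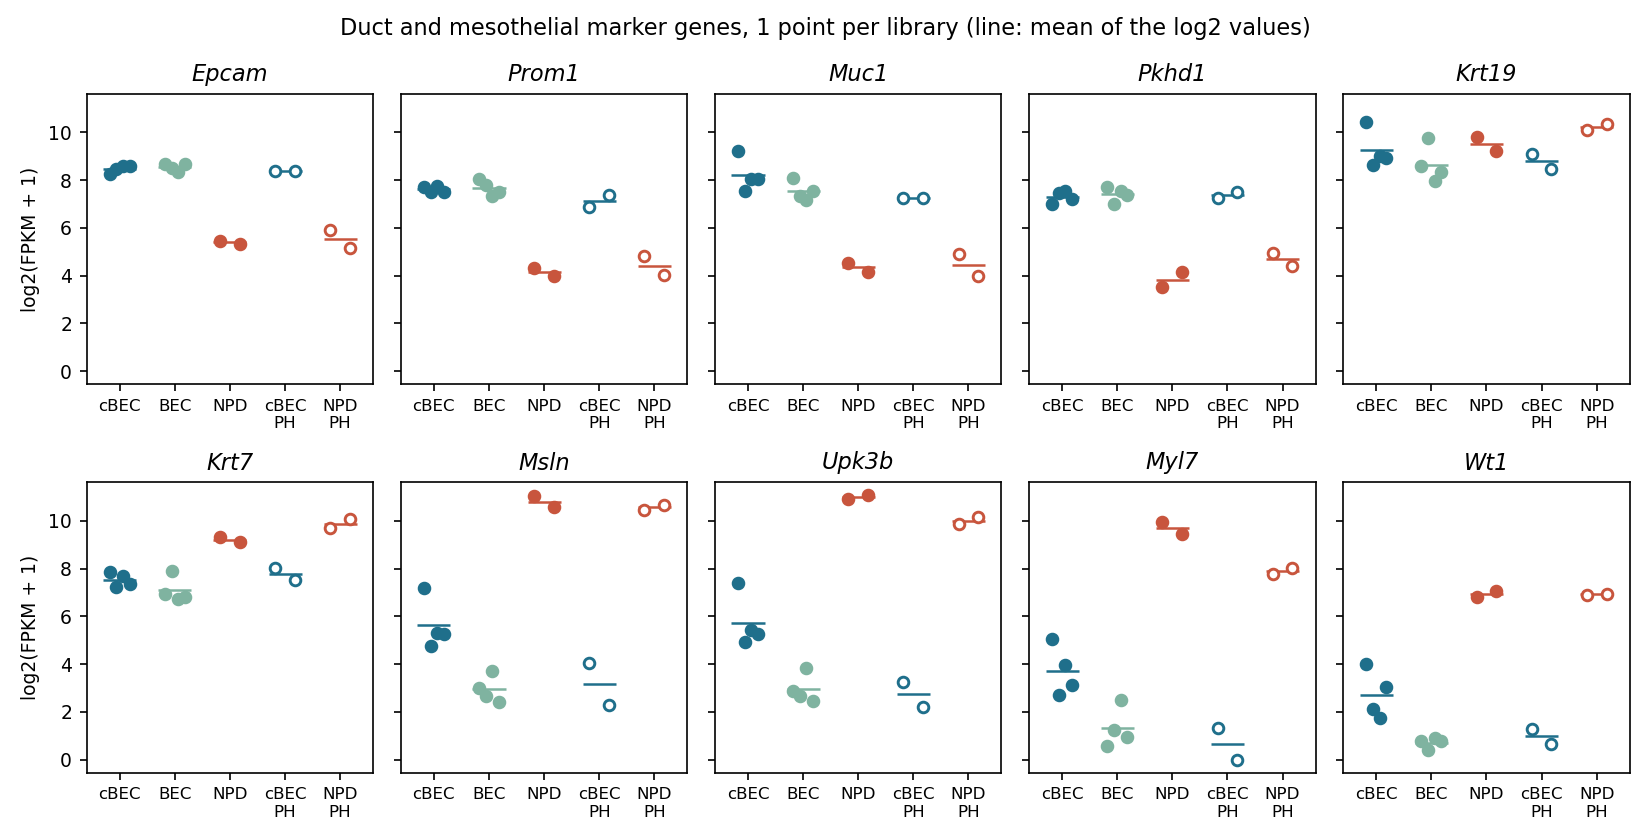
Levels of 5 duct genes and 5 genes of mesothelium or shared with it (panels) as log2(FPKM + 1), with 1 point per library and a line at the mean of the log2 values. Filled points are normal liver (cBEC, BEC, NPD) and open points are PH (cBEC, NPD). Epcam, Prom1, Muc1 and Pkhd1 are high in cBEC and BEC and low in NPD, Krt19 overlaps between cBEC and NPD, and Krt7, Msln, Upk3b, Myl7 and Wt1 are highest in NPD.

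Over whole lists, the 22 genes of biliary identity summed to 17051 to 26921 FPKM in cBEC, 20556 to 29309 in BEC and 3559 to 5238 in NPD. The 27 listed genes of mesothelial identity that the table holds summed to 965 to 2208 FPKM in cBEC, 651 to 777 in BEC and 25290 to 27736 in NPD. The biliary sums of cBEC and BEC thus overlapped, while every cBEC library lay above every BEC library on the mesothelial sum. In NPD the mesothelial list stood above the biliary list. A single gene, Spp1, made up much of the biliary sums in cBEC and NPD. In NPD, Slpi, Igfbp6, Efemp1, Upk3b and Msln made up much of the mesothelial sum. Krt7 and Krt19 of the biliary list were not low in NPD, with means of 594 and 746 FPKM against 187 and 692 in cBEC. The mesothelial list was chosen with the levels of Msln, Upk3b and Myl7 in these libraries known. Of the defining genes, Upk3bl was listed at 0 in all libraries of cBEC, NPD and BEC. Sums over different lists cannot decide whether the label non-progenitor ducts holds, so the NPD libraries are called the NPD sort here. In bulk sorts, fewer cells of a type and less RNA of that type per cell cannot be told apart.

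The levels in the other normal sorts give scale, without a test. Mean Epcam was 377 FPKM in BEC, 358 in cBEC, 45.9 in Thy1 cells (5.78 and 86.0 in the 2 libraries) and 41.1 in NPD, and 5.14 in blood or lower elsewhere. BEC and cBEC overlapped, and so did Thy1 and NPD. Mean Msln was 1811 FPKM in NPD, 743 in Thy1 cells, 61.0 in cBEC, 18.8 in endothelial cells and 7.14 in BEC. NPD and Thy1 thus led this order, with no overlap between them, and cBEC overlapped endothelial cells.

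Markers of other liver cell types were low next to these lists but not absent. The 17 endothelial markers summed to 40 to 389 FPKM in cBEC and 350 to 512 in NPD, and 1 (Egfl7) was higher in cBEC and 2 (Kdr and Esam) lower. The 14 macrophage markers summed to 89 to 217 FPKM in cBEC and 276 to 584 in NPD, with 0 of 12 tested genes higher and 1 (Marco) lower in the limma fit, where 3 had an unadjusted p under 0.05. Without cBEC library 1 the macrophage counts were 1 higher and 4 lower, and without cBEC library 3 or with quantile normalized values 3 were lower. With upper-quartile scaled values 2 were lower, and with the replicate number as a block 6 were. That block fit in effect compares only cBEC libraries 1 and 2 with NPD. Without cBEC library 2 or either NPD library none was lower. Egfl7 was at 39.1, 28.8, 26.8 and 46 FPKM in cBEC and 21 and 5.87 in NPD and Marco at 1.31, 1.04, 0.115 and 1.98 in cBEC and 7.38 and 2.97 in NPD, and each call ended without any 1 of several libraries, with limma adjusted p up to 0.185 and 0.355. Lymphocyte and blood markers summed to 1.61 to 609 FPKM in cBEC, where Ly6d alone was at 574 in library 1, and 3.89 to 27.7 in NPD, with 0 of 6 tested genes passing. Stellate cell and pericyte markers summed to 245 to 577 FPKM in cBEC and 553 to 635 in NPD, with 2 of 15 higher and 2 lower. Among all genes tested 18.5% were higher in cBEC and 11.2% lower. Of the 15 hepatocyte markers, 12 were listed at 0 in all cBEC libraries and 13 in both NPD libraries, and Alb was at 779 FPKM in cBEC library 4 and listed at 0 in the other 5.

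Over all genes, 13757 were tested and 4085 (29.7%) differed at a limma adjusted p under 0.05. Of these, 2539 (18.5% of genes tested) were higher in cBEC and 1546 (11.2%) were lower. For all 4085 the 4 cBEC libraries lay on 1 side of both NPD libraries. The choice by adjusted p in these same libraries favours such a separation, so it is not further evidence. The median log2 difference of all genes was 0.25, and it was 0.12 with upper-quartile scaled values and 0.08 with quantile normalized values, so a difference near 0 has no settled direction. Those scalings gave 2004 higher and 1864 lower, and 1859 higher and 1841 lower, so 62.2% of calls were higher in cBEC as deposited, 51.8% with upper-quartile scaled values and 50.2% with quantile normalized values. The count was 1909 without NPD library 1, and 5578 without cBEC library 1.

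The 12 largest rises in cBEC among genes low in hepatocytes (under 10 FPKM there) were Muc1, Elf3, Tmem45b, Cldn4, Onecut1, Spata24, Mia, Slc44a3, Lad1, Pkhd1, Myh14 and Prom1. Their log2 differences ran from 3.46 to 3.88. They stood at the top of 1248 genes that met the same conditions on size, adjusted p and separation of the libraries. Of other genes named below, Spp1, Cdh1, Foxa2, Hes1, Numb, Lrp5, Lgr4, Fgfr2, Fgfr4, Erbb3, Met, Cyr61, Dpp4, F11r and Lsr are over 10 FPKM in hepatocytes. By known role the 12 rises include surface and junction proteins (Muc1, Prom1, Cldn4, Lad1) and epithelial transcription factors (Elf3, Onecut1).

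Prom1 (NM_001163578, chromosome 5, 44392682 to 44486007, minus strand), the pentaspan surface protein CD133, was at 210.2, 179.6, 216 and 178 FPKM in cBEC and at 19 and 14.9 FPKM in NPD. The cBEC libraries were close to each other, and the log2 difference was 3.46 (SE 0.19, limma adjusted p 7.51e-05). Pkhd1 (NM_153179, chromosome 1, 20047860 to 20608138, minus strand) encodes fibrocystin, a protein of the cilium that is mutated in recessive polycystic kidney and liver disease. It was at 127, 173, 186 and 147 FPKM in cBEC and at 10.6 and 16.5 FPKM in NPD, and differed by 3.46 (SE 0.24). Neither gene had an outlying library.

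Elf3, an epithelial factor of the ETS family, was at 456, 62.2, 51.5 and 52 FPKM in cBEC and at 7.2 and 4.15 FPKM in NPD. Cldn4, a claudin of tight junctions, was at 338, 97.3, 85.4 and 89.7 FPKM in cBEC and at 14.4 and 4.55 FPKM in NPD. Tmem45b was at 56.8, 12, 8.73 and 7.68 FPKM in cBEC and at 0 and 0.252 FPKM in NPD. In each of the 3, library 1 of cBEC was several times as high as libraries 2 to 4. These still lay above both NPD libraries, as the rule that named the genes required. Their log2 differences were 3.87 (SE 0.99, limma adjusted p 0.0354), 3.78 (SE 0.70, limma adjusted p 0.0105) and 3.83 (SE 0.77, limma adjusted p 0.0111). Elf3 did not pass without any 1 of the NPD libraries or of cBEC libraries 2 to 4, nor after upper-quartile scaling (limma adjusted p 0.0509 to 0.146). Cldn4 did not pass without NPD library 2 (0.0598), and Tmem45b without either NPD library (0.0624 and 0.098).

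Onecut1, a factor needed for bile duct development, was at 51.6, 101, 115 and 118 FPKM in cBEC and at 3.25 and 13.1 FPKM in NPD. Library 1 was the lowest of cBEC for this gene. Slc44a3, of the choline transporter-like family, was at 82.3, 91.4, 102 and 82 FPKM in cBEC and at 5.56 and 8.76 in NPD, and Myh14, a nonmuscle myosin heavy chain, at 96.5, 66.7, 82.7 and 67.8 in cBEC and 6.52 and 5.75 in NPD. Lad1, a protein of epithelial anchoring filaments, was at 77.6, 27, 33.2 and 31.4 FPKM in cBEC and 1.84 and 3.46 in NPD. Spata24 was at 14.5, 31.9, 34.8 and 42.2 FPKM in cBEC and 0.496 and 3.29 in NPD, and Mia, a small secreted protein, was at 9.74, 24.8, 21 and 13.4 in cBEC and 0 and 1.34 in NPD. None of these genes overlapped between the sorts, which the rule that named them required.

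RefSeq promoter sequence (GRCm38.p6, 250 bases before the start) was at hand for 10 of these 12 rises and for 7 of the 12 largest falls. It is shown for the rises that hold the E-box, which more of the rises held than any other motif searched. Only these 250 bases were searched, so a match near the start is set by the search. The Cldn4, Elf3, Prom1, Slc44a3 and Muc1 stretches hold the E-box CACCTG or its reverse complement CAGGTG in capitals, a motif bound by Zeb and Snai factors.
Cldn4 (chr5:134946935-134946978, minus strand): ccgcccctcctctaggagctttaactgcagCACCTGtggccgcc
Elf3 (chr1:135258577-135258642, minus strand): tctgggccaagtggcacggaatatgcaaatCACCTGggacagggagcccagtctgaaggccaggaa
Prom1 (chr5:44101923-44101986, minus strand): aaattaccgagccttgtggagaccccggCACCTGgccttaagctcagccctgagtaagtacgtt
Slc44a3 (chr3:121532359-121532424, minus strand): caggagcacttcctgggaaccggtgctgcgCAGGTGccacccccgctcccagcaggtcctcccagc
Muc1 (chr3:89228806-89229021, plus strand): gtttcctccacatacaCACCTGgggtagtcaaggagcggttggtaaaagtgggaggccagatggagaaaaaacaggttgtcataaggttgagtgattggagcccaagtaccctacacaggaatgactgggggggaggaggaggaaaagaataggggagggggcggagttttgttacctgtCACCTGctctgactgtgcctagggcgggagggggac

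On either strand, CACCTG was found in 17.2% of 32851 promoters of that length, in 5 of the 10 rises and in 0 of the 7 falls. The other motifs searched were AACCNGGTT (Grhl factors, 0.24% of promoters), TGTTTAC (Foxa factors, 3.17%) and GCGTGGGAG (Wt1, 0.405%), each in none of the 17 matched genes. TGGGAA (Rbpj, 21.6%) was in Elf3, Myh14, Prom1, Slc44a3 and Fgl2, GGAATG (Tead factors, 12.6%) in Elf3, Muc1, Slc44a3, Myl7 and Ogn, and AGATAA (which Gata4 and related factors bind, 9.99%) in Lad1 and Fmod. Binding was not measured, and a match of letters is a description only.

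Genes of biliary identity were higher in cBEC as a group. Of the 22 listed genes 21 were tested, 17 were higher in cBEC, Krt7 was lower and 3 did not pass, with a median log2 difference of 2.98 against 0.25 for all genes. Besides those above, Sox9, a factor that marks duct cells, was at 99.2, 131, 130.0 and 126 FPKM in cBEC and at 17.9 and 15.9 in NPD (log2 difference 2.77, SE 0.19, limma adjusted p 8.93e-05), with library 1 the lowest of cBEC. Onecut2 differed by 3.28 and Spp1, a secreted phosphoprotein that was the most abundant of the list at 14740.0 ± 5256 FPKM in cBEC (SD, n = 4) against 1776 ± 568 in NPD (SD, n = 2), by 3.0. The sorts were separate for each of these genes.

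The keratins were not uniform. Krt8 and Krt18, the partner keratins of simple epithelia, also abundant in hepatocytes, were higher in cBEC by 2.18 and 2.13 (limma adjusted p 0.00301 and 0.00167). Krt19 was at 1383, 394, 506 and 487 FPKM in cBEC and at 899.8 and 593 FPKM in NPD. The sorts overlapped, with library 1 of cBEC above both NPD libraries, and Krt19 did not pass (-0.27, SE 0.50, limma adjusted p 0.717). Krt7 was at 232, 148, 203 and 164 FPKM in cBEC and at 641 and 547 FPKM in NPD and was higher in NPD (-1.68, SE 0.24, limma adjusted p 0.00167). Keratin genes have pseudogene copies, and how shared reads were counted is not given in the sources used here.

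The level of duct genes in NPD can be given as a share of the cBEC level. Over the 15 listed biliary genes that were tested and low in hepatocytes, whether or not they passed, NPD library 1 held a median of 14.1% of the cBEC mean (3.36% to 343%) and NPD library 2 a median of 12.3% (5.04% to 313%). For Krt7, Lgals2 and Krt19 the NPD mean was 318%, 313% and 108% of the cBEC mean, and for Cd44 it was 26.5%. For Epcam, Cdh1, Cd24a, Spp1 and St14 the NPD mean was 11.5%, 10.2%, 11.8%, 12% and 12.1% of the cBEC mean.

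Junction and polarity genes showed the same direction. All 26 listed genes were tested, 19 were higher in cBEC, 0 were lower and 7 did not pass, with a median of 2.53. Of the 26 genes 12 are over 10 FPKM in hepatocytes, so zeros of the kind described below for Hnf4a can limit the list's values. Dsp, the desmosome linker desmoplakin, was at 137, 144, 139.9 and 129.5 FPKM in cBEC and at 14.1 and 17.7 in NPD (3.04, SE 0.17, limma adjusted p 7.51e-05). The splicing factors of epithelia Esrp1 and Esrp2 differed by 3.25 (limma adjusted p 7.73e-05) and 3.3 (limma adjusted p 0.0191), the latter abundant in hepatocytes and at 0.214 and 7.92 FPKM in the NPD libraries. Esrp2 did not pass without cBEC library 3 or 4 (limma adjusted p 0.052 and 0.0502). Members that did not pass include F11r, a junction adhesion protein at 259 ± 28.6 FPKM in cBEC (SD, n = 4) and 248 ± 7.02 in NPD (SD, n = 2), and Lsr, of tricellular junctions, at 100.5 ± 14.7 and 97.7 ± 8.2.

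Of 22 epithelial transcription factors, 18 were tested, 13 were higher in cBEC, Creb3l1 was lower and 4 did not pass (median 2.59). Of the 22 listed genes 7 are over 10 FPKM in hepatocytes, so the limit given for Hnf4a in this paragraph can hold for them too. Ehf, an ETS factor, was at 105, 113, 157 and 115 FPKM in cBEC and at 12.9 and 9.94 in NPD (3.31, SE 0.22, limma adjusted p 8.11e-05). Foxa2, a forkhead factor of liver and gut endoderm, was at 30.4, 42.9, 55.8 and 48.1 FPKM in cBEC and at 3.44 and 5.36 in NPD (3.06, SE 0.27). Hnf4a was at 14.3, 11.1, 9.24 and 6.23 FPKM in cBEC and listed at 0 in both NPD libraries, but it is at 173 FPKM in hepatocytes, and transcripts abundant there are often listed at 0 in other sorts of this table. Creb3l1, a factor of collagen-secreting cells, was lower in cBEC by 1.04 (limma adjusted p 0.0472), a call that ended without any 1 of the NPD libraries or of cBEC libraries 2 to 4 (0.0948 to 0.213).

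Genes of duct transport and bile sensing were mixed. Of 24 listed genes 22 were tested, 11 were higher in cBEC, Aqp1 was lower and 10 did not pass (median 1.32). Kcnn4, a calcium-activated potassium channel, was at 66.8, 45.7, 42.2 and 45.4 FPKM in cBEC and at 3.7 and 4.31 in NPD (3.33, SE 0.23, limma adjusted p 8.93e-05). P2ry2, a nucleotide receptor that drives secretion, differed by 3.09, and Slc10a2, the apical bile acid transporter, was at 21.3, 7.09, 7.83 and 4.52 FPKM in cBEC and at 0 and 0.709 in NPD (limma adjusted p 0.00597, and 0.0718 without NPD library 1). Aqp1, a water channel of ducts, mesothelium and small vessels, was at 456, 47.9, 25.4 and 55.3 FPKM in cBEC and at 1276 and 1248 in NPD, and library 1 stood far above the other 3. Its log2 difference was -4.06 (SE 1.15, limma adjusted p 0.0481), which did not pass under either scaling (0.0712 and 0.0581) or without any 1 library other than cBEC library 1 (0.0845 to 0.199). Cftr, the chloride channel of duct cells, was at 13.2, 22.5, 17.9 and 16.1 FPKM in cBEC and 15.9 and 14.2 in NPD and did not pass (limma adjusted p 0.606). Without cBEC library 1 the list had 12 genes higher and 5 lower, and without NPD library 1 it had 7 higher and 0 lower.

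Of 24 genes of the primary cilium and of polycystic disease, 23 were tested, 5 were higher in cBEC, 2 were lower and 16 did not pass (median 0.57). These counts are near the shares over all genes tested, 18.5% higher and 11.2% lower. Glis3, a factor mutated in cystic disease, differed by 3.25 (SE 0.20) and Foxj1, a factor of motile cilia, by 2.54 (SE 0.36). Kif7, a cilium kinesin of hedgehog signalling, was lower in cBEC by 1.61 (limma adjusted p 0.00794, and 0.107 without NPD library 1). Pkd1 and Pkd2, the polycystins, did not pass, at 18 ± 1.47 and 82.5 ± 10.1 FPKM in cBEC (SD, n = 4) and 25.3 ± 8.17 and 69.6 ± 15.1 in NPD (SD, n = 2). Without cBEC library 1 the count of higher genes was 13, and without NPD library 1 no gene of the list was lower.

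**Figure D2:**
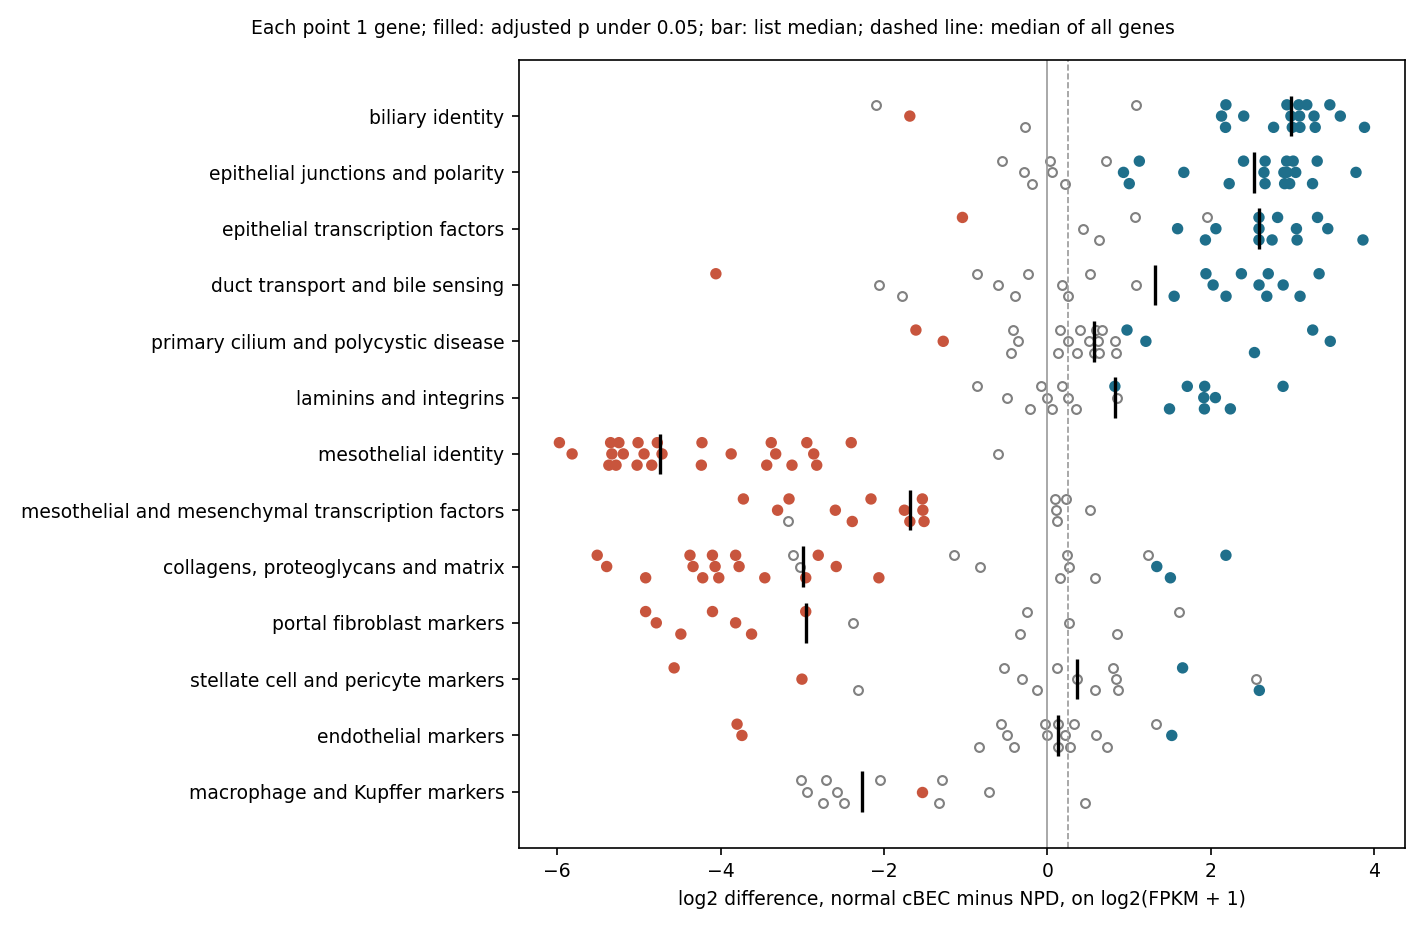
Difference of normal cBEC minus NPD on the log2(FPKM + 1) scale (x axis) for every tested gene of 13 lists (rows), where filled points passed a limma adjusted p under 0.05, the bar is the list's median and the dashed line is the median of all genes, 0.25. Biliary, junction and epithelial factor genes lie mostly to the right, mesothelial, matrix and portal fibroblast genes mostly to the left, and endothelial genes around 0.

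The 12 largest falls in cBEC under the same rule were Myl7, Hotairm1, Sulf1, AU021092, Fmod, Bst1, Fgl2, Prss12, Chst4, Ogn, Igfbp6 and Upk1b. Their log2 differences were 5.35 to 5.97 in size, larger than those of the 12 rises, and they led 1012 genes that met the rule. Upk1b and Igfbp6 belong to the mesothelial list, and Fmod and Ogn are small collagen-binding proteoglycans.

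Sulf1, an extracellular enzyme that trims heparan sulfate, was at 32.6, 5.15, 10.5 and 5.98 FPKM in cBEC and at 548 and 563 FPKM in NPD. Fmod (fibromodulin) was at 77.8, 10.2, 11.7 and 15.4 FPKM in cBEC and at 903 and 984 FPKM in NPD. Igfbp6, a binding protein of insulin-like growth factors, was at 196, 35.7, 45.4 and 58.4 FPKM in cBEC and at 2955 and 2569 FPKM in NPD. In all 3 the lowest NPD library exceeded the highest cBEC library, which was library 1, by more than the spread within either sort. The rule required separate libraries and chose the largest falls, so this is not further evidence. The log2 differences were -5.61 (SE 0.70), -5.51 (SE 0.82) and -5.37 (SE 0.66), with limma adjusted p of 0.00238, 0.00482 and 0.0019.

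Upk1b, a uroplakin, was at 44.7, 6.72, 8.73 and 13 FPKM in cBEC and 706 and 511 in NPD, and Ogn (osteoglycin) at 25.5, 4.69, 5.53 and 11.9 in cBEC and 406 and 488 in NPD. Bst1 (CD157), a surface enzyme that uses NAD, was at 11.9, 3.94, 3.39 and 6.42 FPKM in cBEC and 333 and 281 in NPD. Fgl2, of the fibrinogen-like family, was at 17.4, 3.26, 3.16 and 2.39 FPKM in cBEC and 237 and 278 in NPD. Library 1 was the highest cBEC library in all 4. Prss12, a secreted protease, was at 5.74, 1.09, 1.3 and 1.54 FPKM in cBEC and 128 and 131 in NPD, Chst4, a sulfotransferase, at 19.6, 3.2, 4.78 and 2.04 in cBEC and 239 and 300.4 in NPD, and AU021092 at 36.2, 10.2, 9.85 and 14.4 in cBEC and 799 and 737 in NPD. Hotairm1, a noncoding RNA of the HoxA cluster transcribed opposite to its genes, was at 3.79, 0.226, 0.125 and 0 FPKM in cBEC and 107 and 74.1 in NPD. Whether reads were counted by strand is not given in the sources used here, so its reads cannot be told apart from those of genes it overlaps.

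Of the 28 listed genes of mesothelial identity, 27 were in the table and 26 were tested. None was higher in cBEC, 25 were lower and Aldh1a1 did not pass, with a median of -4.75, and the counts were the same without cBEC library 1. Slpi, a secreted protease inhibitor, was at 299, 47.7, 81.4 and 54.2 FPKM in cBEC and at 6506 and 3983 FPKM in NPD (-5.82, SE 0.77, limma adjusted p 0.00286). Rspo1, a Wnt agonist, was at 28.9, 6.36, 9.92 and 11.1 FPKM in cBEC and at 509.6 and 540.5 in NPD (-5.33, SE 0.52). Wt1 was at 15.2, 3.3, 2.38 and 7.12 FPKM in cBEC and at 113 and 134 in NPD (-4.23), and Bnc1 (basonuclin) at 7.81, 1.78, 2.85 and 1.95 in cBEC and 127 and 137 in NPD (-5.02). Aldh1a1, which is abundant in hepatocytes, was at 90.2, 231, 124 and 173 FPKM in cBEC and 238 and 205 in NPD. This list was chosen with the levels of Msln, Upk3b and Myl7 in these libraries known, so its direction is not independent evidence.

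Of 24 transcription factors of mesothelium and mesenchyme, 17 were tested, 0 were higher in cBEC, 11 were lower and 6 did not pass (median -1.68). Hoxa5 was at 3.03, 1.2, 0.677 and 1.96 FPKM in cBEC and 45.2 and 23.9 in NPD (-3.72, SE 0.42, limma adjusted p 0.000568), and Bnc2 at 1.85, 0.212, 0.378 and 0.218 in cBEC and 10.2 and 19.8 in NPD (-3.3). Gata4, a factor of heart, gut and mesothelium, was at 10.9, 2.72, 0.415 and 5.54 FPKM in cBEC and 34.3 and 44.8 in NPD (-3.16, limma adjusted p 0.0299), a call that ended without either NPD library or without cBEC library 2 or 4 (0.0584 to 0.125). Meis1, a homeobox factor, differed by -2.59. The repressors of epithelial genes Zeb1 and Snai1 were lower in cBEC by 1.53 and 2.39 (limma adjusted p 0.00532 and 0.0215). Snai1 did not pass without NPD library 1 or 2 (0.197 and 0.0531) and Zeb1 without NPD library 2 (0.0506). Without NPD library 1 the count of lower genes was 5, and without NPD library 2 it was 4.

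Matrix genes were mostly lower in cBEC but not all of them. Of 30 listed genes 28 were tested, 3 were higher in cBEC, 16 were lower and 9 did not pass (median -2.99). Dcn (decorin) was at 351, 116, 99.9 and 128 FPKM in cBEC and 3418 and 2911 in NPD (-4.37, SE 0.49, limma adjusted p 0.000734), and Mfap5, a microfibril protein, at 5.59, 0.448, 1.57 and 1.39 in cBEC and 113 and 60.0 in NPD (-4.92). The 3 higher genes were Fn1 (fibronectin, also abundant in hepatocytes) by 2.19 and the basement membrane collagens Col4a1 by 1.51 and Col4a2 by 1.34. The fibrillar collagens Col1a1 and Col1a2 were at 32.9 ± 41.7 and 34 ± 40.9 FPKM in cBEC (SD, n = 4) and 186 ± 76.5 and 197 ± 80.1 in NPD (SD, n = 2) and did not pass (limma adjusted p 0.0705 and 0.0531). Library 1 of cBEC held 95.1 and 95.2 FPKM of them, and without it both passed (0.000328 and 7.15e-05). Without either NPD library the count of lower genes was 6.

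Some genes of fibroblast and endothelial lists were also high in NPD. Over all genes tested, 18.5% were higher in cBEC and 11.2% lower. Of 14 portal fibroblast markers 13 were tested, 0 were higher in cBEC and 7 were lower (median -2.96), with summed levels of 97.4 to 388 FPKM in cBEC and 989 to 1385 in NPD. Among the lower genes were Thy1, at 8.21, 0.994, 0.573 and 1.61 FPKM in cBEC and 86.5 and 74.6 in NPD (-4.79), Cd34 (-4.49) and Clec3b (-4.1). The fibroblast receptor Pdgfra was at 5.0, 1.02, 0.198 and 0.709 FPKM in cBEC and 2.38 and 1.33 in NPD and did not pass. Kdr, a receptor of vascular growth factor, was at 24.8, 8.25, 2.31 and 12 FPKM in cBEC and 108 and 164 in NPD (-3.74, limma adjusted p 0.0169), and Esam, an adhesion molecule, differed by -3.8 (limma adjusted p 0.00954). The defining endothelial marker Pecam1 was at 28, 5.09, 0.10 and 5.83 FPKM in cBEC and 15.3 and 1.33 in NPD and did not pass. Kdr did not pass without either NPD library (0.0786 and 0.0883) nor Esam without NPD library 1 (0.0725). Of the pericyte list, Rgs5 was higher in cBEC by 2.6 and Reln by 1.66 (limma adjusted p 0.00541, and 0.065 in 1 fit of all 20 groups), and Cygb was lower by 4.57 and Ecm1 by 3.0. Without NPD library 1 or 2 neither Cygb (0.0636 and 0.0507) nor Ecm1 (0.108 and 0.0823) passed.

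Library 1 of cBEC held more of the mesothelial transcripts than the other 3. Over the 23 listed mesothelial genes that were tested and low in hepatocytes, the median level was 8.15% of the NPD mean in library 1 and 1.75%, 2.49% and 2.56% in libraries 2 to 4. In the 4 BEC libraries it was 0.38%, 0.365%, 0.805% and 0.463%. Every cBEC library thus lay above every BEC library on this measure, which was not tested. Duct genes did not go 1 way in library 1: it was the highest of the 4 for Muc1, Elf3 and Cldn4 and the lowest for Epcam, Pkhd1, Sox9 and Onecut1, and its summed biliary list was the lowest, at 17051 FPKM against 21818 to 26921. Its summed matrix list was 2371 FPKM against 1101 to 1202 in libraries 2 to 4. Without library 1 the counts of higher and lower genes were 17 and 2 in the biliary list, 19 and 1 in the junction list, 14 and 1 in the epithelial factors, 0 and 12 in the mesothelial and mesenchymal factors, 3 and 19 in the matrix list, 0 and 8 in the portal fibroblast list, 0 and 2 in the endothelial list and 2 and 3 in the pericyte list. In the signalling lists they were 8 and 2 (Notch), 10 and 16 (Wnt), 6 and 15 (BMP and TGF-beta), 10 and 7 (FGF, EGF and HGF), 2 and 7 (hedgehog) and 4 and 5 (YAP), and 7 and 0 in the S phase and mitosis list. Lymphocyte and blood markers again had no gene passing in the limma fit. The part of these transcripts in the comparison was not tested beyond the counts without library 1.

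**Figure D3:**
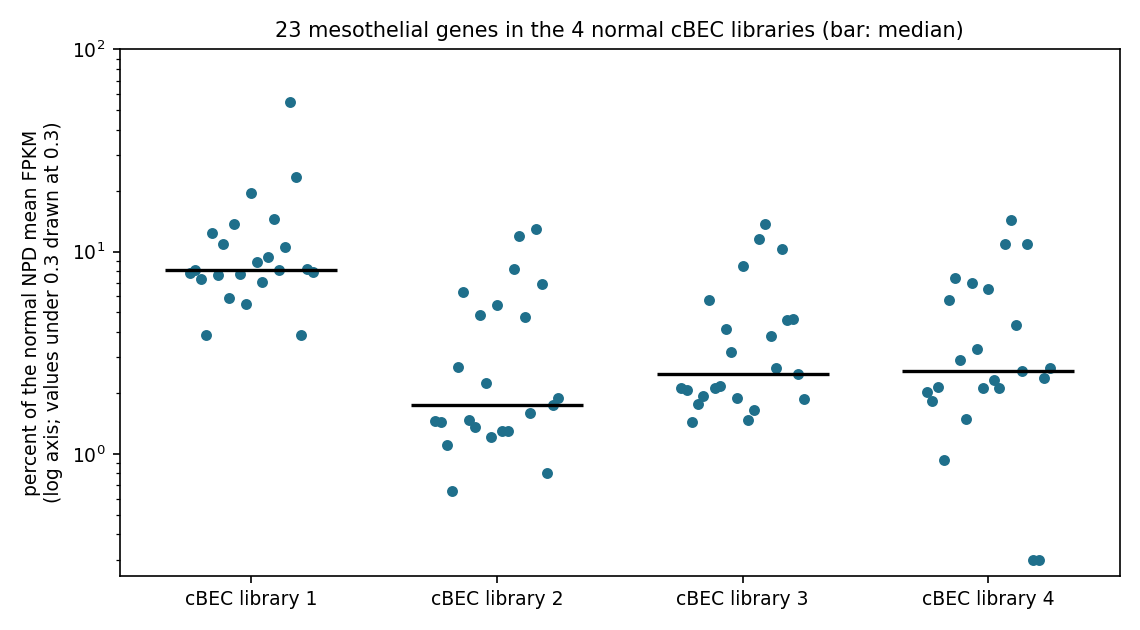
Level of 23 mesothelial genes in each of the 4 normal cBEC libraries as a percent of the gene's mean in normal NPD (log axis, 1 point per gene, bar at the median, values under 0.3 drawn at 0.3). Library 1 has a median of 8.15% and libraries 2 to 4 lie between 1.75% and 2.56%.

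Each signalling list held genes higher in cBEC and genes higher in NPD. Among all genes tested 18.5% were higher in cBEC and 11.2% lower, so genes on both sides alone do not set a list apart. The Notch pathway passes signals between touching cells and directs duct formation. Of 20 listed genes, all tested, 7 were higher in cBEC, 2 were lower and 11 did not pass (median 0.59). The count of lower genes is near the 11.2% of all genes. The ligand Jag1 was at 58, 91.4, 82.7 and 91.2 FPKM in cBEC and 8.51 and 14.8 in NPD (2.71, SE 0.27, limma adjusted p 0.000341). The receptors Notch1 and Notch2 differed by 2.69 and 1.12, and Notch2 was the more abundant, at 70.2 ± 2.32 FPKM in cBEC (SD, n = 4). The target Hes1 was at 477, 541, 513 and 385 FPKM in cBEC and 105 and 57.5 in NPD (2.59). Lfng, a glycosyltransferase that modifies Notch receptors, was lower in cBEC by 2.73 (limma adjusted p 0.00402), as was the inhibitor Numb by 1.01. Numb did not pass without NPD library 2 (0.0601).

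Of 38 genes of the Wnt pathway 31 were tested, 9 were higher in cBEC, 14 were lower and 8 did not pass (median -0.88). The ligands with large differences were higher in NPD. Wnt2b was at 17.2, 2.75, 5.49 and 5.61 FPKM in cBEC and 111 and 187 in NPD (-4.3, SE 0.61), Wnt11 differed by -3.27, and the feedback inhibitor Nkd1 by -3.52. With the replicate number as a block, a fit that in effect compares only cBEC libraries 1 and 2 with NPD, Wnt2b did not pass (limma adjusted p 0.0626). Wnt4 and Wnt7a were higher in cBEC, by 1.02 and 1.66. Of the receptors, Lrp5 and Lgr4 were higher in cBEC (1.06 and 1.38), and Fzd1, Fzd2, Fzd4 and Fzd7 were lower by 1.4, 3.16, 1.71 and 1.41. The target Axin2 was at 1.93, 1.03, 1.05 and 0.794 FPKM in cBEC and 7.12 and 8.04 in NPD. The secreted inhibitor Sfrp5 was higher in cBEC by 2.78, while Sfrp2 was lower by 2.99. Without NPD library 1 the count of higher genes was 4, and Lgr4 (0.0611), Wnt7a (0.0846) and Sfrp2 (0.0543) did not pass. Without NPD library 2 Wnt4 (0.0605) and Wnt7a (0.0769) did not pass.

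The BMP and TGF-beta pathway had 30 of 32 genes tested, 6 higher in cBEC, 13 lower and 11 not passing (median -0.54). The count of higher genes is near the share over all genes tested, 18.5%, and 11.2% of all genes were lower. Bmp4 was at 13.6, 4.2, 5.81 and 5.24 FPKM in cBEC and 105 and 107 in NPD (-3.82, SE 0.39, limma adjusted p 0.000397). The extracellular antagonist Fst was at 1.14, 0, 0.221 and 1.29 FPKM in cBEC and 43.6 and 32.6 in NPD, lower in cBEC by 4.63. Another antagonist, Chrd, was at 4.49, 2.36, 2.6 and 1.34 FPKM in cBEC and 26.2 and 28.2 in NPD, lower by 3.0. Ltbp1, which stores latent TGF-beta in the matrix, differed by -4.46, and the receptors Tgfbr2 and Tgfbr3 by -2.6 and -2.89. Bmp6 was higher in cBEC, at 23.7, 33.1, 36.3 and 41.2 FPKM against 12.5 and 5.95 in NPD (1.81), as were Bmp7 (1.16) and the inhibitor Smad7 (1.4). Ligands of this family were thus found on both sides. Without NPD library 1 there were 2 higher and 9 lower genes, with Bmp7 at an adjusted p of 0.1, and without NPD library 2 there were 4 and 8.

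Of 24 genes of the FGF, EGF and HGF families 20 were tested, 9 were higher in cBEC and 6 were lower (median 0.72). The higher genes were 6 receptors and 3 EGF ligands, and the lower genes were 4 FGF ligands and the receptors Egfr and Met. Egfr was listed at 0 in all 4 cBEC libraries and at 2.12 and 11.4 FPKM in NPD, but it is at 207 FPKM in hepatocytes, so the limit given for Hnf4a holds for it too. Fgfr3 was at 355, 619, 667 and 544 FPKM in cBEC and 68.1 and 72.6 in NPD (2.9), and Fgfr2, Fgfr4, Erbb3 and Erbb4 were higher by 2.02, 2.97, 2.9 and 2.88. The ligand Fgf18 was at 3.33, 0.425, 1.18 and 0.688 FPKM in cBEC and 59.6 and 66.6 in NPD (-4.87, SE 0.44), and Fgf2 and Fgf1 differed by -4.33 and -3.3. Fgf1 is also transcribed in hepatocytes and did not pass without either NPD library (limma adjusted p 0.0961 and 0.0604). Among EGF ligands, Hbegf was at 321, 159.8, 145 and 148 FPKM in cBEC and 37.6 and 10.4 in NPD (3.13, limma adjusted p 0.00673), and Btc was higher by 1.99. The receptor of HGF, Met, was lower in cBEC by 0.87 and did not pass with the replicate number as a block (limma adjusted p 0.128). In that fit the cBEC libraries with a number that NPD lacks do not bear on the difference.

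In the hedgehog pathway 11 of 14 genes were tested, 1 was higher in cBEC and 6 were lower (median -1.62). The co-receptor Gas1 was at 48.5, 10.4, 14.8 and 14 FPKM in cBEC and 488 and 699 in NPD (-4.94, SE 0.59). The target and effector Gli1 was at 2.17, 0.40, 0.341 and 0.916 FPKM in cBEC and 25 and 18.6 in NPD (-3.62), and Gli2 and the co-receptor Boc differed by -2.99 and -3.07. The higher gene was the receptor Ptch1 (0.6, limma adjusted p 0.0463), a call that ended under either scaling (0.136 and 0.107) and without any 1 library other than cBEC library 1 (0.0885 to 0.178).

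The YAP and TAZ proteins sense cell shape and density. Of 20 genes of their pathway and targets, all tested, 4 were higher in cBEC, 4 were lower and 12 did not pass (median 0.14, below the 0.25 of all genes). The count of higher genes is near the share over all genes tested, 18.5%, and 11.2% of all genes were lower. Tead2, a DNA-binding partner, was at 15.9, 24.4, 34 and 33.5 FPKM in cBEC and 3.2 and 3.63 in NPD (2.6), and the target Ankrd1 at 221, 405, 297 and 335 in cBEC and 76.1 and 32.9 in NPD (2.59). Crim1 and the receptor kinase Axl were lower in cBEC by 2.36 and 2.39 (limma adjusted p 0.00183 and 0.0456), and Axl did not pass without any 1 library other than cBEC library 1 (0.0701 to 0.224). Without NPD library 1 there were 2 higher and 3 lower genes. The target Cyr61 was abundant in both sorts, at 1110.2, 1325, 1277 and 1045 FPKM in cBEC and 889.8 and 1003 in NPD, and did not pass as deposited (limma adjusted p 0.315, and 0.0347 after quantile normalization).

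**Figure D4:**
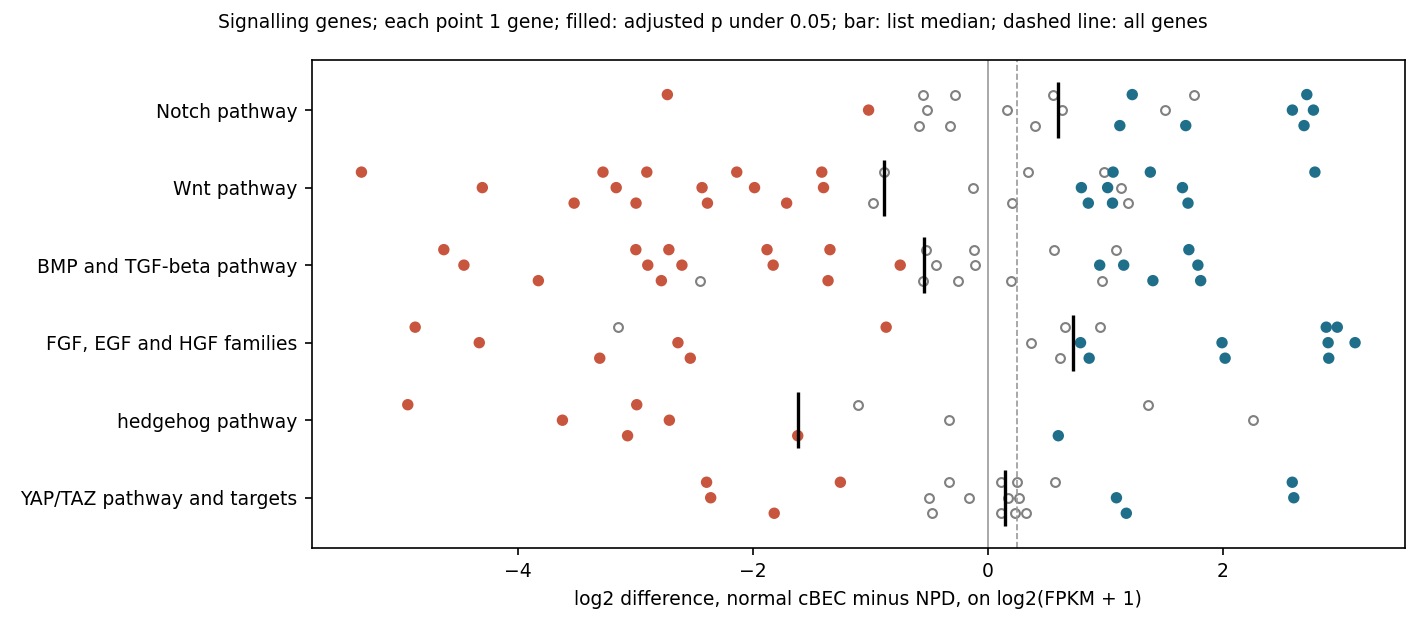
Difference of normal cBEC minus NPD on the log2(FPKM + 1) scale (x axis) for every tested gene of 6 signalling lists (rows), filled where the limma adjusted p is under 0.05, with the list's median as a bar and the median of all genes, 0.25, as a dashed line. Each list has filled points on both sides, with list medians from -1.62 (hedgehog) to 0.72 (FGF, EGF and HGF).

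Complement is a cascade of plasma proteins that hepatocytes secrete in bulk. Of 15 listed genes 14 were in the table and tested, 1 (Cd59a, a membrane inhibitor) was higher in cBEC, 6 were lower and 7 did not pass (median -3.16), and the list summed to 844 to 1477 FPKM in cBEC and 14718 to 15859 in NPD. C3, the central component, was at 984, 571, 699 and 761 FPKM in cBEC and at 8613 and 10534 FPKM in NPD (-3.69, SE 0.28, limma adjusted p 0.000141). The inhibitor Serping1 was at 213, 98.9, 106 and 173 FPKM in cBEC and 3146 and 2837 in NPD (-4.4), and the protease C1ra at 15.5, 7.07, 6.35 and 16.9 in cBEC and 231 and 212 in NPD (-4.28). The component C4b was at 37.4, 0, 0.712 and 1.6 FPKM in cBEC and 472 and 582 in NPD. Of the 14 genes 9 are over 10 FPKM in hepatocytes, so zeros of the kind described for Hnf4a limit the list's values. C4b did not pass without any 1 library other than cBEC library 1 (0.0553 to 0.106). Without cBEC library 1 the list had 2 genes higher and 8 lower. With all libraries, 18.5% of all genes tested were higher in cBEC and 11.2% lower.

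The comparison was then made in the PH libraries of the same sorts, which the normal comparison does not use. Of 13033 genes tested, 5845 (44.8%) differed, 2707 (20.8%) higher in cBEC and 3138 (24.1%) lower, with a median difference of 0.01. Without PH NPD library 1 the count was 2609, and without PH NPD library 2 it was 2123. Among 12697 genes tested in both conditions, 2473 were higher in normal liver and 2696 after PH, and 1643 were in both sets, 66.4% of the first and 60.9% of the second. Lower genes numbered 1444 and 2921, with 1228 in both, 85% and 42%. There were 55 genes higher in normal liver and lower after PH, and 6 the other way.

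All 12 of the largest rises were also higher in cBEC after PH, by 1.57 to 2.96, and all 12 of the largest falls were lower, by 3.86 to 7.24 in size. All 24 passed after PH, where 20.8% of all genes tested were higher and 24.1% lower. Without either PH NPD library 19 of the 24 could still be tested, and 18 of them passed (all but Tmem45b). Muc1 had 149.5 and 151 FPKM in PH cBEC and 28.5 and 15 in PH NPD, and Prom1 had 117 and 166 in PH cBEC and 27.2 and 15.1 in PH NPD. Msln had 15.3 and 3.85 FPKM in PH cBEC and 1420.3 and 1622 in PH NPD, and Myl7 had 1.47 and 0 in PH cBEC and 219 and 256 in PH NPD. The biliary list had 16 of 21 genes higher and 4 lower after PH (median 2.59), the junction list 22 of 26 higher and 0 lower (2.13), and the mesothelial list 0 of 26 higher and 25 lower (-5.73), counts that stayed within 1.5 times without any 1 of the 4 libraries. Krt19, which did not pass in normal liver, was lower in PH cBEC, at 552 and 351 FPKM against 1103 and 1287 in PH NPD (-1.44, limma adjusted p 0.00888, and 0.164 in 1 fit of all 20 groups).

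Whether the difference between the sorts itself differed between PH and normal liver was tested in a single fit of the 10 libraries. Of 14239 genes, 369 (2.59%) passed, 82 (0.576%) with a more positive difference after PH and 287 (2.02%) with a more negative one, and 2438 had an unadjusted p under 0.05. Of the calls 22.2% were higher after PH as deposited, 32.8% with upper-quartile scaled values and 42% with quantile normalized values. The count was 14 without PH NPD library 1, 21 without PH NPD library 2, 42 without PH cBEC library 2, 136 without normal cBEC library 2, 177 without PH cBEC library 1, 200 without normal NPD library 2, 245 without normal cBEC library 4 and 798 without normal cBEC library 1. None of the 24 largest rises and falls passed (limma adjusted p 0.312 to 0.987).

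Cell division genes differed in this test. In normal liver, 26 of 30 genes of S phase and mitosis were tested, 6 were higher in cBEC and 0 were lower (median 0.59), among them Mcm2, Mcm6 and Mcm7, subunits of the replication helicase, and Plk1, a mitotic kinase. That count of higher genes is near the share over all genes tested in normal liver, 18.5%. Without cBEC library 2 or 4 or either NPD library 3 were higher, Mcm7 did not pass without NPD library 1 (0.107), and Plk1 did not pass without any 1 library other than cBEC library 1 (0.0502 to 0.203). After PH 0 were higher and 29 of 30 were lower (median -2.13), with 15 of 18 lower without PH NPD library 1 and 17 of 18 without PH NPD library 2. In all, 21 of 30 passed the test of the difference, all with a more negative value after PH (median -2.71 against -0.22 for all genes). With quantile normalized values 17 passed, all more negative (median -2.27 against 0.06 for all genes). Mcm2 was at 12.1, 13.8, 12.9 and 13.7 FPKM in normal cBEC and 4.08 and 3.96 in normal NPD, and at 18.6 and 15.1 in PH cBEC and 49 and 49.4 in PH NPD. Levels were thus higher after PH without overlap in both sorts. They were 15.1 and 18.6 against 12.1 to 13.8 FPKM in cBEC, and 49 and 49.4 against 3.96 and 4.08 in NPD. The difference of the contrasts was -2.99 (SE 0.24, limma adjusted p 0.000663). Ccne1, the S phase cyclin, had 0 and 0 FPKM in PH cBEC and 13.5 and 11.4 in PH NPD, against 1.08, 0.0705, 0.574 and 1.51 in normal cBEC and 0 and 0.227 in normal NPD (-4.38, limma adjusted p 0.0054, and 0.0651 and 0.0531 without PH NPD library 1 or 2). Of the 30 genes, 2 passed without PH NPD library 1, 6 without PH NPD library 2, 6 without PH cBEC library 2 and 13 without normal cBEC library 2, with medians of -2.51 to -3.05 in these 4 fits.

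Few other list genes differed in this way. In the mesothelial list, Efemp1, a matrix glycoprotein, was at 2499.8 and 2741 FPKM in normal NPD and 659 and 704 in PH NPD, and at 247, 215, 303 and 286 in normal cBEC and 226 and 232 in PH cBEC (1.76, limma adjusted p 0.0146). Dpp4, a surface peptidase, was at 249.7 and 274 FPKM in normal NPD and 85.9 and 93.1 in PH NPD, and at 37.9, 32.9, 38 and 35.8 in normal cBEC and 24.9 and 26.9 in PH cBEC (1.07, limma adjusted p 0.0334). In the YAP list, Cyr61 had 2896 and 3049 FPKM in PH cBEC and 682 and 617 in PH NPD (1.87, limma adjusted p 0.0122), and Lats2 and Amotl2, which restrain YAP, had 1.54 and 1.58. Cftr had 35.9 and 50.3 FPKM in PH cBEC and 9.78 and 8.42 in PH NPD (1.94, limma adjusted p 0.0208). In 1 fit of all 20 groups the difference of the contrasts did not pass for Efemp1, Dpp4, Cyr61 and Amotl2. Their limma adjusted p was 0.308, 0.613, 0.284 and 0.0628. Col4a1 was higher in normal cBEC and lower in PH cBEC, with a difference of 1.51 in normal liver and -0.71 after PH (limma adjusted p 0.0146 for the difference of the contrasts). Its call after PH ended without either PH NPD library (0.269 and 0.0627), without PH cBEC library 1 (0.0534), with quantile normalized values (0.0931) and in 1 fit of all 20 groups (0.288). Without PH NPD library 1, PH NPD library 2 or PH cBEC library 2 no gene of the mesothelial, YAP, transport or matrix lists passed this test, and the adjusted p of these 7 genes (Efemp1, Dpp4, Cyr61, Lats2, Amotl2, Cftr and Col4a1) was 0.0633 to 0.222.

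**Figure D5:**
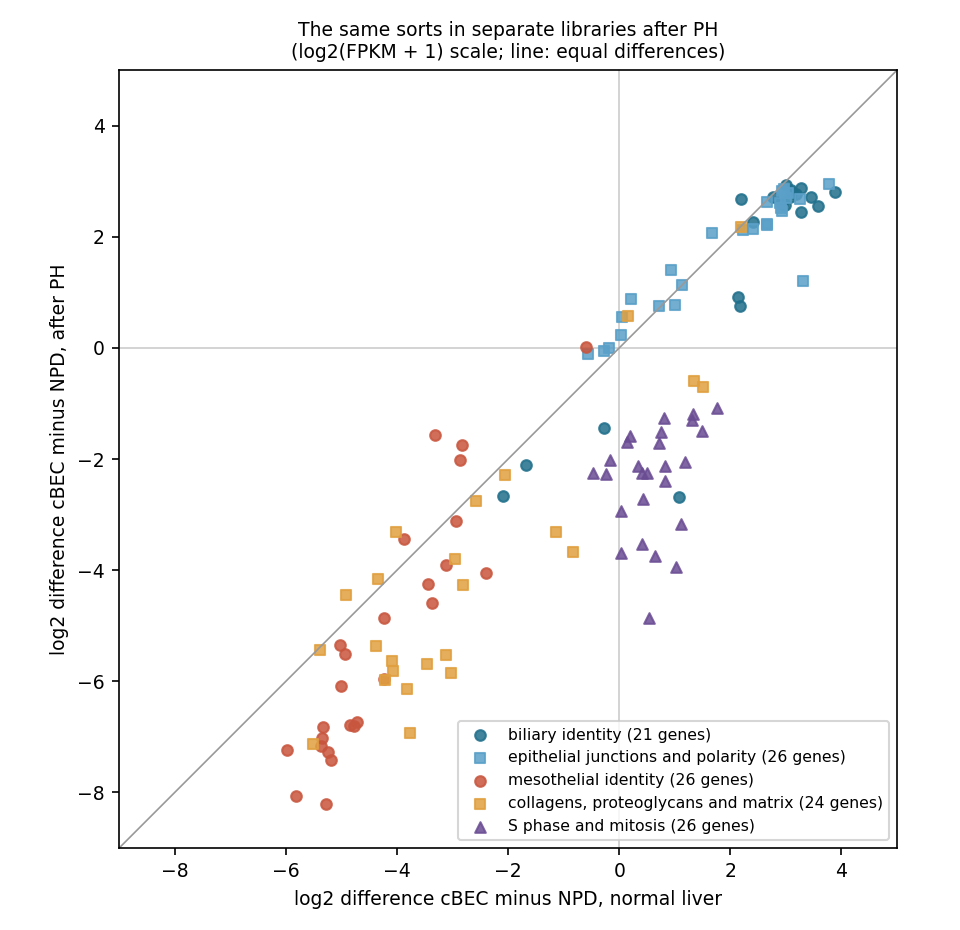
Difference of cBEC minus NPD after PH (y axis) against that in normal liver (x axis), both on the log2(FPKM + 1) scale and from separate libraries, with 1 point per gene tested in both for 5 lists and a line of equal differences. Duct and junction genes lie mostly in the upper right, and mesothelial and matrix genes mostly in the lower left. S phase and mitosis genes lie below 0 on the y axis with x values near 0 or above.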

How the data were processed

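RNA of sorted mouse liver cells was sequenced on Illumina instruments, per the labels' protocols. The authors deposited 1 table of FPKM per RefSeq transcript and library. The submitters' processing notes name CASAVA 1.8.2, Bowtie 1.0.0 and mm9, without their roles, and how reads shared between genes were counted is not given in the sources used here. Start coordinates in the table count from 0 and 1 was added. FPKM do not keep the depth, so no count model was used.

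One transcript was kept per symbol (highest mean over all libraries), and genes with at least 1 FPKM in at least 2 of the libraries fitted were tested. Differences of log2(FPKM + 1), which understate the change of low genes, were tested with limma 3.58.1 in R 4.3.3 (empirical Bayes with a trend and robust settings, Benjamini-Hochberg adjustment over all genes tested, adjusted p under 0.05). The normal comparison used 4 cBEC and 2 NPD libraries, the PH comparison 2 and 2, and the difference of the contrasts all 10. The script was tested on simulated data. Python 3.11.15 with matplotlib 3.10.9 drew the figures.

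Named genes are the 12 largest rises and falls (adjusted p under 0.05, log2 difference of at least 1, no overlap of libraries, under 10 FPKM in both hepatocyte groups, no predicted genes, pseudogenes, small RNAs or receptor segments), 5 markers and, from each of 26 lists, up to 4 members with the largest difference that passed. A further 61 list members were named after their values were seen. Some genes are not reported here by name and are counted in their lists. The members and lists were chosen with earlier results of these data known. Other settings tried were quantile normalization, upper-quartile scaling, a pseudocount of 0.1, no filter on low values, 1 fit of all 20 groups, the replicate number as a block, genes under 10 FPKM in hepatocytes, the mean over transcripts of a symbol, and leaving out each library in turn.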

Additional observations from a re-analysis of the deposited data

Results flagged for a closer look

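In the normal cBEC group of 4 libraries, 37 of the 163 named genes had 1 library that stood far apart from the other 3, measured by its gap to the nearest library over the range of the group. About 8.2 would be flagged by chance, since chance flags about 1 group in 20. That number holds for genes chosen without regard to their values. Of these genes 61 were named after their values were seen, so the 37 are a description and not a test. The library was library 1 in 36 of the 37. Mesothelial and matrix genes were high there: Msln 142 FPKM, Upk3b 165, Slpi 299, Upk1b 44.7, Igfbp6 196, Bnc2 1.85, Gas1 48.5, Fmod 77.8, Dcn 351, Col1a1 95.1, Col1a2 95.2 and Col4a1 99.9. Of the other genes that led the NPD sort, Hotairm1 was at 3.79 FPKM, Fgl2 at 17.4, Prss12 at 5.74 and Chst4 at 19.6. Genes of fibroblast, pericyte and endothelial lists were high as well, with Thy1 at 8.21 FPKM, Cd34 at 43.4, Cygb at 20.2 and Esam at 35.6. Several genes that led cBEC were highest in the same library, with Elf3 at 456 FPKM, Tmem45b at 56.8, Cldn4 at 338, Lad1 at 77.6, Kcnn4 at 66.8 and Hbegf at 321. Krt19 was at 1383 FPKM, Aqp1 at 456, Ly6d at 574, C4b at 37.4, Lfng at 6.64, Tgfbr2 at 43.3, Fzd4 at 18.9 and Wnt7a at 4.11. Sox9 at 99.2 FPKM and Btc at 15.8 were low in library 1. Cdh1 was high in library 3, at 633 FPKM.

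For 14 named genes the difference of cBEC minus NPD itself differed between PH and normal liver by the limma test. It was more negative after PH on the log2 scale for Mcm2 (-2.99), Mcm6 (-2.52), Mcm7 (-2.61), Plk1 (-3.23), Ccne1 (-4.38), Col4a1 (-2.22), Col4a2 (-1.93) and Wnt4 (-1.44). It was more positive for Cyr61 (1.87), Lats2 (1.54), Amotl2 (1.58), Cftr (1.94), Efemp1 (1.76) and Dpp4 (1.07). Their adjusted p lay between 0.000663 (Mcm2) and 0.0401 (Wnt4). Without PH NPD library 1 Mcm2 was the only 1 of the 14 that passed.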

How the results depend on the processing

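The directions of the 102 genes named by the rule held under the 14 alternatives wherever they were tested (90 of the 102 in the test of genes under 10 FPKM in hepatocytes, and all 102 in the other 13), and the count of them that no longer passed was 1 to 17 per alternative that left out a library and 0 to 8 under the others. The count of genes that differed in normal liver was 1909 to 5578 when 1 library was left out, after PH it was 2123 to 7121, and for the difference of the contrasts it was 14 to 798. Where a sort was left with 1 library, that library was assumed to vary like the other groups. For the difference of the contrasts, a pseudocount of 0.1 gave 242, 1 fit of all 20 groups gave 649, and genes under 10 FPKM in hepatocytes gave 236, against 369. The cause of these changes was not tested. FPKM keep no depth, so the precision of low values cannot be given.

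Replicate numbers are shared between the sorts, and the labels do not say whether they pair the libraries. Deviations of same-numbered libraries correlated at 0.082 and 0.068 in normal liver and 0.031 after PH. With 2 NPD libraries in each condition their deviations mirror each other, so these correlations cannot decide whether the libraries are paired. NPD lacks some of the replicate numbers of normal cBEC, so in the block fits those cBEC libraries do not bear on the difference. With the replicate number as a block, 2529 genes differed in normal liver, 5960 after PH and 250 for the difference of the contrasts, and 8 of the 102 named genes and 6 of the 61 further list members no longer passed, while 2 of the further members (Col1a2 and Ly6d) now passed.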

Other observations

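Laminins form the basement membrane, and integrins hold cells to it. Of 20 laminin and integrin genes 19 were tested, 9 were higher, 0 were lower and 10 did not pass (median 0.83 against 0.25 for all genes). Itgb8 was at 28.7, 49.4, 34.8 and 34.4 FPKM in cBEC and 2.56 and 6.06 in NPD (log2 difference 2.89), Itgb6 at 10.9, 6.02, 5.56 and 8.12 in cBEC and 1.05 and 0.544 in NPD (2.24), and Itga9 at 26, 38.7, 43.1 and 34.9 in cBEC and 10.0 and 7.15 in NPD (1.93). The laminin chain gene Lamb3 was at 15.9, 10.5, 7.85 and 6.42 FPKM in cBEC and 1.53 and 1.58 in NPD (2.06). Without cBEC library 1, 9 genes were higher and 2 lower. With all libraries, 18.5% of all genes tested were higher in cBEC and 11.2% lower.

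Genes of mucosal defence were mixed. Of 30 genes 24 were tested, 5 were higher in cBEC, 2 were lower and 17 did not pass (median 0.61). These counts are near the shares over all genes tested, 18.5% higher and 11.2% lower. Without cBEC library 1 the counts were 5 and 6. Pigr, the receptor that carries IgA into bile, was at 500.0, 241, 177 and 281 FPKM in cBEC and 16.1 and 8.6 in NPD, and is at 612 FPKM in hepatocytes. The trefoil peptide gene Tff2 was at 155, 69, 49.4 and 80.5 FPKM in cBEC and 15.6 and 3.3 in NPD, and the interleukin 1 antagonist gene Il1rn at 15.3, 9.01, 8.46 and 13.9 in cBEC and 1.38 and 1.25 in NPD. The alarmin gene Il33 was higher in NPD, at 72 and 75.9 FPKM against 9.93, 4.15, 5.41 and 10.2 in cBEC. Of 7 MHC class II genes none passed in the limma fit (median -0.45), and 0 had an unadjusted p under 0.05.

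Of 25 immediate early and stress genes, all tested, 6 were higher in cBEC and 2 were lower (median 0.18). These counts are near the shares over all genes tested, 18.5% higher and 11.2% lower. Of the 25 genes 14 are over 10 FPKM in hepatocytes, so the limit given for Hnf4a can hold for them too. Myc was at 74.7, 41.7, 44.1 and 51.3 FPKM in cBEC and 20.3 and 10.2 in NPD, Ier2 at 569, 657, 676 and 507 in cBEC and 322 and 136 in NPD, and Egr2 at 64, 38.3, 24.1 and 30.8 in cBEC and 15.6 and 5.75 in NPD. Klf2 was at 62.9, 12.4, 9.04 and 21.1 FPKM in cBEC and 174 and 197 in NPD and was lower. Egr2 did not pass without cBEC library 2 or 4 or NPD library 2 (limma adjusted p 0.0615, 0.0524 and 0.142) or with quantile normalized values (0.051), Klf2 without cBEC library 2 or 4 or either NPD library (0.057 to 0.117), and Ier2, which is over 10 FPKM in hepatocytes, without NPD library 2 (0.0633). Without NPD library 2 the count was 1 higher and 0 lower, and without cBEC library 1 it was 6 higher and 7 lower.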
